A study of Mus musculus with 6 samples.

Results

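Transcripts of proteins that neutrophils store in granules were compared, by 6 probe sets, between miR-223 null and wild-type mouse neutrophils. The probe sets measure myeloperoxidase (Mpo, 1415960_AT), neutrophil elastase (Elane, formerly Ela2, 1422928_AT), proteinase 3 (Prtn3, 1419669_AT), cathepsin G (Ctsg, 1419594_AT) and the lysozymes Lyz2 (1423547_AT) and Lyz1 (1436996_X_AT). The rule that picks the members goes by probe set number and uses no measured value, and they are 6 of the 45101 probe sets in the deposited table. The table holds no gene names, so the pairing of these numbers with genes is the one that came with the list of members. It was not checked here against an annotation of the array. The cells came straight from bone marrow: 3 arrays were made from miR-223 null mice and 3 from wild-type mice. Neutrophils were taken with a Gr-1 antibody and magnetic beads in both groups, with no further treatment. The labels name no strain, age, sex or form of the null allele, and do not say whether each array stands for a separate animal. The p-values below therefore measure the spread between arrays, which may in part be technical.

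Azurophil granules are the first granules that a developing neutrophil forms. Myeloperoxidase and the serine proteases elastase, proteinase 3 and cathepsin G are made mainly at the promyelocyte stage, and their transcripts decline as the cell matures, while the proteins stay in store. Lysozyme is made over more of the neutrophil's development and is found in several granule types, and Lyz2 is also strongly transcribed in monocytes and macrophages. In a bulk sample of Gr-1 cells, which bind the antibody as neutrophils or as monocytes with Ly6C, fewer cells of one stage or type and less RNA per cell cannot be told apart.

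miR-223, the microRNA that the null mice lack, is abundant in myeloid cells and represses messenger RNAs that hold a match to its seed. The gene lies on the X chromosome, and the 3p arm is its main product. Both arms are shown since they define the null group, with the seed (bases 2 to 8) in capitals, from RefSeq on GRCm38.p6.
mmu-miR-223-3p (chrX:96242884-96242905, plus strand): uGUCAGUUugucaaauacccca
mmu-miR-223-5p (chrX:96242842-96242864, plus strand): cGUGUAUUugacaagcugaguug

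Values are the authors' expression values, taken as log2 from their range. Their medians were 4.81 to 4.84 on the 6 arrays, so they were used without further normalization, although the authors' normalization is not given. All 6 probe sets passed the filter on dim values, a mean over the 6 arrays of at least 4.83, and each passes it in either group alone. Differences are null minus wild type, fitted with limma over the 22519 probe sets that passed, and p-values were adjusted over all of them by Benjamini-Hochberg. Wild-type replicate 2 stood apart for the azurophil genes, so their values are also given without it. It was the lowest array for each of the 4 azurophil genes, so leaving it out lowers each difference by construction. With wild-type replicate 1 left out instead, the differences were 0.75 for Mpo, 0.49 for Elane, 1.05 for Prtn3 and 1.12 for Ctsg. Wild-type replicate 2 also had the lowest mean of the hybridization controls, bacterial and phage sequences added to every array (10.72, against 10.77 to 10.98 on the other 5). The 3′ minus 5′ difference of the dap control, a bacterial transcript, was lowest there too (1.78, against 1.91 to 2.34), as was the 3′ probe set for 18S ribosomal RNA (8.50, against 8.72 to 9.97). For Gapdh, a measure of RNA integrity, the 3′ minus 5′ difference was 0.10 on that array and 0.04 to 0.33 on the others. Null replicate 3 was the next lowest for the hybridization controls (10.77) and for dap (1.91). Its levels were 10.10 for Mpo, 8.96 for Elane, 9.20 for Prtn3 and 8.40 for Ctsg. The part of these technical values in the results was not tested. Probe sets for neutrophil, monocyte or other cell type markers were not analysed here, so the cell type label was not checked beyond the members themselves. The 3′ control probe set for the transferrin receptor, which red cell precursors carry, lay below the filter on every array (3.87 to 4.38). A single dim probe set cannot show whether such cells were absent.

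Levels of the 4 azurophil transcripts Mpo, Elane, Prtn3 and Ctsg had higher means in null than in wild-type neutrophils, by 1.21-fold to 1.74-fold, but none of these differences passed the test. The 2 lysozyme probe sets were near the top of the array's range in both groups and differed by at most 0.01 log2 units. At an adjusted p of 0.05, 0 of the 6 members were called, against 864 of 22519 probe sets (3.84%) in the whole table. At an unadjusted limma p under 0.05, Ctsg alone passed, 1 of 6 members against 18.7% of all probe sets tested. The 3 null values lay all above the 3 wild-type values for Prtn3 alone, 1 of 6 members against 24.6% of all tested probe sets separated in either direction. The median difference was 0.36 over the 6 members and 0.61 over the 4 azurophil genes, against −0.01 over all tested probe sets, and these medians are descriptions. Without wild-type replicate 2 the medians were 0.03 over the 6 members and 0.19 over the 4 azurophil genes, against −0.0042 over all tested probe sets.

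**Figure D1:**
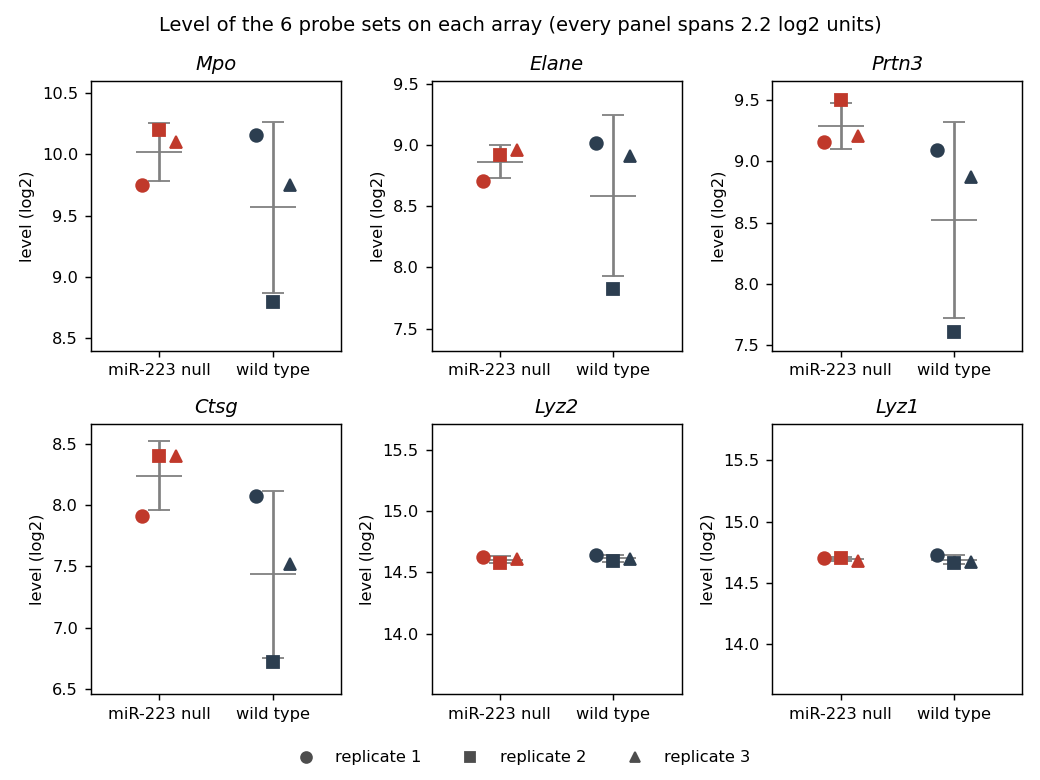
Log2 level of each of the 6 probe sets on each array, miR-223 null (red) left of wild type (dark), with the group mean and SD (n = 3) in grey and every panel spanning the same number of log2 units. For Mpo, Elane, Prtn3 and Ctsg wild-type replicate 2 (square) lies below all other arrays, while the lysozyme values hardly differ between arrays.

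Myeloperoxidase uses hydrogen peroxide and chloride to make hypochlorous acid, and it gives azurophil granules their older name of peroxidase-positive granules. Its probe set had log2 levels of 9.75, 10.20 and 10.10 in null replicates 1 to 3, against 10.16, 8.79 and 9.75 in wild-type replicates 1 to 3. The groups overlapped, since wild-type replicate 1 lay above null replicates 1 and 3. The means were 10.02 ± 0.24 in null and 9.57 ± 0.70 in wild-type cells (log2, SD, n = 3 each). The difference was 0.45 with a standard error of 0.32 and a 95% interval of −0.29 to 1.19, or 0.82-fold to 2.28-fold (limma adjusted p = 0.522). Without wild-type replicate 2 it was 0.06, with an interval of −0.35 to 0.48 (limma adjusted p = 0.917).

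Neutrophil elastase, a serine protease that cleaves elastin and bacterial outer membrane proteins, showed the smallest difference of the 4. Elane had levels of 8.71, 8.92 and 8.96 in null replicates 1 to 3, against 9.01, 7.83 and 8.91 in wild-type replicates 1 to 3. Here the highest of all 6 arrays was a wild-type one, replicate 1, and the lowest was wild-type replicate 2. The means were 8.86 ± 0.14 in null and 8.58 ± 0.66 in wild-type cells (log2, SD, n = 3 each), a difference of 0.28 with a standard error of 0.29 and a 95% interval of −0.40 to 0.96 (limma adjusted p = 0.701). The sign depended on a single array: without wild-type replicate 2 the difference was −0.10, with an interval of −0.38 to 0.18 (limma adjusted p = 0.765).

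Proteinase 3, a close relative of elastase and the target of autoantibodies in human vasculitis, was the member whose groups did not overlap. Prtn3 had levels of 9.16, 9.50 and 9.20 in null replicates 1 to 3, against 9.09, 7.61 and 8.87 in wild-type replicates 1 to 3. Null replicate 1 and wild-type replicate 1 nevertheless lay within 0.07 log2 units of each other. The means were 9.29 ± 0.19 in null and 8.52 ± 0.80 in wild-type cells (log2, SD, n = 3 each). The difference of 0.77, or 1.70-fold, had a standard error of 0.35 and a 95% interval of −0.06 to 1.59 (limma adjusted p = 0.304). A two-sided exact permutation test gave p = 0.1, the smallest that 3 arrays against 3 allow. Leaving out wild-type replicate 2 brought the difference to 0.31, with an interval of −0.02 to 0.64 (limma adjusted p = 0.335).

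Cathepsin G, a chymotrypsin-like serine protease, had the largest difference of the 6. Ctsg levels were 7.91, 8.40 and 8.40 in null replicates 1 to 3, against 8.07, 6.72 and 7.52 in wild-type replicates 1 to 3. Wild-type replicate 1 lay above null replicate 1, so the groups overlapped. The means were 8.24 ± 0.28 in null and 7.44 ± 0.68 in wild-type cells (log2, SD, n = 3 each). The difference was 0.80, or 1.74-fold, with a standard error of 0.32 and a 95% interval of 0.06 to 1.55 that is not adjusted for the number of probe sets. Its unadjusted limma p of 0.0385 became 0.232 after adjustment over all tested probe sets, and 97.4% of them had a smaller difference in either direction. Without wild-type replicate 2 it was 0.44, with an interval of −0.08 to 0.97 (limma adjusted p = 0.387).

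The lysozymes cleave the peptidoglycan of bacterial walls. In the mouse, Lyz2 is the myeloid (M) form and Lyz1 the form of intestinal Paneth cells, encoded next to each other on chromosome 10. The suffix _X_AT of the Lyz1 probe set marks probe sets that may also detect other transcripts, so its signal cannot be assigned to Lyz1 apart from Lyz2. Lyz2 had levels of 14.63, 14.57 and 14.61 in null replicates 1 to 3, against 14.65, 14.59 and 14.61 in wild-type replicates 1 to 3. Levels of the Lyz1 probe set were 14.71, 14.71 and 14.68 in null replicates 1 to 3, against 14.73, 14.66 and 14.68 in wild-type replicates 1 to 3. The groups overlapped for both, and wild-type replicate 1 was the highest array for both. The difference was −0.01 for Lyz2, with a 95% interval of −0.10 to 0.08 (limma adjusted p = 0.943), and 0.01 for Lyz1, with an interval of −0.09 to 0.10 (limma adjusted p = 0.947). On the fold scale the 2 intervals together span 0.93-fold to 1.07-fold. Only 7 of the 45037 probe sets that are not controls had a higher mean than Lyz2, and 3 a higher mean than Lyz1. The highest value among the tested probe sets was 14.98. Differences at this brightness may be compressed by the upper limit of the array, and saturation was not measured here.

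**Figure D2:**
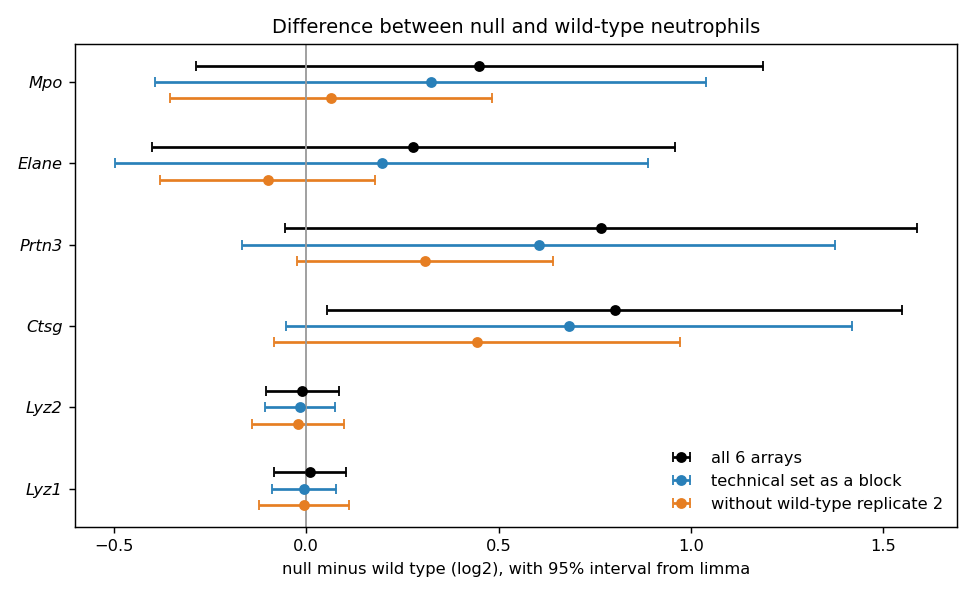
Difference between null and wild-type neutrophils (log2, points) with its 95% interval from limma (bars) for each member, over all 6 arrays (black), with the technical set of arrays as a block (blue) and without wild-type replicate 2 (orange). All intervals cross 0 with the exception of Ctsg over all 6 arrays (0.06 to 1.55). Leaving out wild-type replicate 2, the lowest array for each of the 4 azurophil genes, by construction lowers their differences, here towards or past 0.

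The 4 azurophil genes moved together across the 6 arrays, and much of that shared movement lay in wild-type replicate 2. In each of the 4, wild-type replicate 1 was the highest wild-type array, replicate 3 the next and replicate 2 the lowest, and null replicate 1 was the lowest null array. Wild-type replicate 2 lay below the lowest of the other 5 arrays by 0.95 for Mpo, 0.88 for Elane, 1.27 for Prtn3 and 0.80 for Ctsg, which is 1.74-fold to 2.41-fold. For Lyz1 that array was 0.02 below the others, and for Lyz2 null replicate 2 was lower still, at a brightness where a drop may not show. Across the 6 arrays, Pearson's r between the 6 pairs of azurophil probe sets ran from 0.868 to 0.962, as a description of arrays that share the 2 groups. Over the 5 arrays without wild-type replicate 2 it ran from −0.02, for Elane with Prtn3, to 0.853, for Prtn3 with Ctsg.

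The spread of these genes among the 3 wild-type arrays was wide beside that of other probe sets, and it lay largely in wild-type replicate 2. The SD over the 3 null arrays was 0.14 to 0.28 for the 4 azurophil genes, and over the 3 wild-type arrays it was 0.66 to 0.80. Wild-type replicates 1 and 3 alone gave SDs of 0.29 for Mpo, 0.07 for Elane, 0.15 for Prtn3 and 0.39 for Ctsg (n = 2). For all tested probe sets the median SD was 0.13 in null and 0.15 in wild-type arrays. The wild-type SD exceeded that of 98.5% of tested probe sets for Elane, 98.7% for Ctsg, 98.8% for Mpo and 99.4% for Prtn3. Over wild-type replicates 1 and 3 alone these shares were 29.7% for Elane, 91.5% for Ctsg, 82.4% for Mpo and 56.2% for Prtn3. Over the 3 null arrays the shares were 52.5% for Elane, 69.8% for Prtn3, 80.7% for Mpo and 86.7% for Ctsg. The standard errors of 0.29 to 0.35 for these differences compare with a median of 0.13 over all tested probe sets. Without wild-type replicate 2 they were 0.12 to 0.22.

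**Figure D3:**
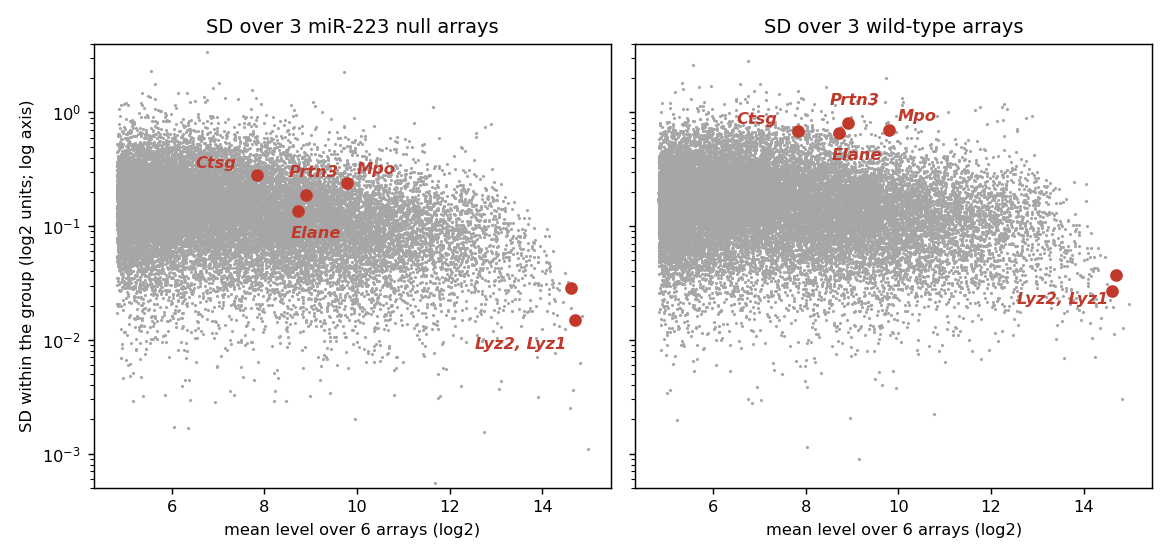
SD of the log2 level over the 3 arrays of a group (log axis) against the mean level over the 6 arrays, for null arrays on the left and wild-type arrays on the right, with all tested probe sets in grey and the 6 members in red. The 4 azurophil genes lie within the cloud in null arrays (0.14 to 0.28) and at its upper edge in the 3 wild-type arrays (0.66 to 0.80, and 0.07 to 0.39 over wild-type replicates 1 and 3 alone), and both lysozymes lie low on both sides.

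A drop of this size on a single array was uncommon but not limited to these genes. Taking the smallest of the 4 gaps, 0.80, as a measure, 69 of the 22519 tested probe sets (0.306%) lay at least that far below all other arrays on wild-type replicate 2, the 4 azurophil probe sets among them. The other 5 arrays stood that low for 2 (null replicate 1) to 28 (null replicate 3) probe sets. Without a gap, wild-type replicate 2 was the lowest array for 16.3% of tested probe sets, within the range of 12.1% to 22.0% for the other 5. Over all tested probe sets, the SD of its difference from the other wild-type arrays was 0.37 (replicate 1) and 0.32 (replicate 3), and that between replicates 1 and 3 was 0.33.

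**Figure D4:**
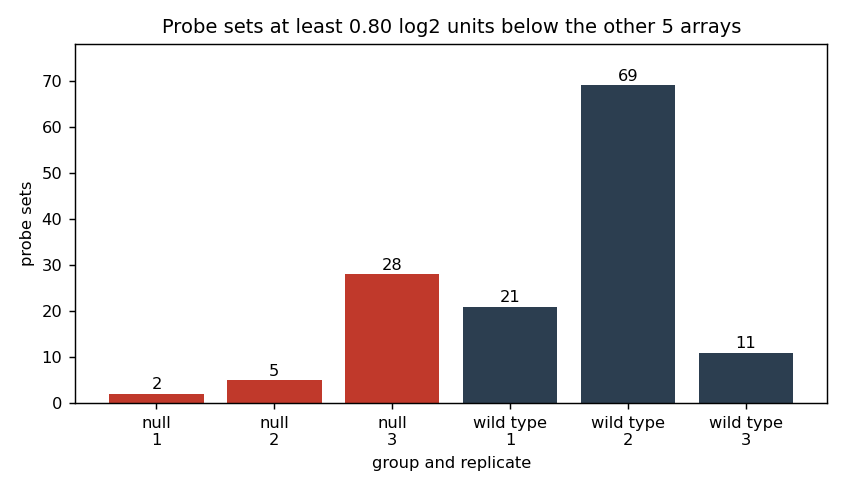
Number of tested probe sets (bars) for which an array lay at least 0.80 log2 units below all other arrays, null arrays in red and wild-type arrays in dark blue. Wild-type replicate 2 had 69 such probe sets, against 2 to 28 on the other arrays.

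Among 4119 other tested probe sets with an SD over the 6 arrays of at least 0.3, 88 (2.14%) followed the mean profile of the 4 azurophil probe sets with r above 0.9. The closest was 1455821_X_AT (r = 0.993 over 6 arrays), followed by 1424562_A_AT (r = 0.986), and the 5 closest had r of at least 0.971. These numbers carry no gene name in the files. Of the 88, 10 also had r above 0.9 over the 5 arrays without wild-type replicate 2, where the median r of the 88 was 0.660. Over those 5 arrays, 19 of all 4119 (0.461%) had r above 0.9. The 5 closest had r of 0.751 to 0.942 there. For 1455821_X_AT the levels were 8.38, 8.63 and 8.51 in null replicates 1 to 3, against 8.58, 7.54 and 8.23 in wild-type replicates 1 to 3. The low array was again wild-type replicate 2, and 0 of the 5 closest probe sets passed the threshold between the groups (limma). The lysozyme profile, which spans a far smaller range, was followed at r above 0.9 by 9 probe sets (0.218%).

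The arrays were also parted into 2 technical sets at the widest gap between their hybridization control means (0.13). Such a cut always yields 2 sets, and the array titles name no batch. The azurophil differences were larger in the set that holds wild-type replicate 2. That array was the lowest of all for each azurophil gene, which by itself raises the differences in its set. In the brighter set, null replicates 1 and 2 against wild-type replicate 1, the difference was −0.18 for Mpo, −0.20 for Elane, 0.24 for Prtn3 and 0.09 for Ctsg. In the dimmer set, null replicate 3 against wild-type replicates 2 and 3, it was 0.83 for Mpo, 0.59 for Elane, 0.97 for Prtn3 and 1.28 for Ctsg. Null replicate 3 against wild-type replicate 3 alone gave 0.35 for Mpo, 0.05 for Elane, 0.33 for Prtn3 and 0.88 for Ctsg. For Elane and Prtn3 these values lay closer to the brighter set, so most of their contrast lay in wild-type replicate 2. For Mpo the value lay about midway between the sets, and for Ctsg it stayed closer to the dimmer set. Mpo and Elane had opposite signs in the 2 sets, and no test was made within a set, since each has a lone array in 1 group. A fit that takes the set as a block gave differences of 0.32 for Mpo, 0.20 for Elane, 0.60 for Prtn3 and 0.68 for Ctsg. Again 0 of the 6 members were called (limma adjusted p of 0.228 to 0.949), against 11.0% of all tested probe sets in that fit.

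The sequences upstream of the 4 azurophil genes are shown as background, and whether they bear on the array values was not tested. Prtn3 and Elane are neighbours on chromosome 10, followed by Cfd, Mpo lies beside the related peroxidase gene Lpo on chromosome 11, and Ctsg lies among the mast cell protease and granzyme genes of chromosome 14. PU.1 and Myb are transcription factors known to act on azurophil granule genes. Capitals mark the letters GAGGAA, a form of the PU.1 site, and AACNG, the core of a Myb site, on either strand. Each sequence covers the 250 bases before the RefSeq start of transcription, 5′ to 3′ on the gene's strand.
Mpo (GRCm38.p6 chr11:87793534-87793783, plus strand): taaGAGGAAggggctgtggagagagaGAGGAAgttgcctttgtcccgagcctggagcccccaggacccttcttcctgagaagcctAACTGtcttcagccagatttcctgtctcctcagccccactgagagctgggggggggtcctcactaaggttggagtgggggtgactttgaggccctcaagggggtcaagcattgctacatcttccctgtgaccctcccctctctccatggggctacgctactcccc
Elane (GRCm38.p6 chr10:79886062-79886311, plus strand): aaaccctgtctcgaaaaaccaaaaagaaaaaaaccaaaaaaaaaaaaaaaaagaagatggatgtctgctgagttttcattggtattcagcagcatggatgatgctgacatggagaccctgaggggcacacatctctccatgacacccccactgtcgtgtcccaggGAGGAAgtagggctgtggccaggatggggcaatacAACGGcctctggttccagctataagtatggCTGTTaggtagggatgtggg
Prtn3 (GRCm38.p6 chr10:79879417-79879666, plus strand): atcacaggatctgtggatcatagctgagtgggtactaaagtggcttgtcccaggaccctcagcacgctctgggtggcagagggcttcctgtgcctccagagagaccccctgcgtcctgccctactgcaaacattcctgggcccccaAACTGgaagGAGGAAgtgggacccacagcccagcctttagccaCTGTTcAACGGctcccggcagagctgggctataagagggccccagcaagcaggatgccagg
Ctsg (GRCm38.p6 chr14:56102575-56102824, minus strand): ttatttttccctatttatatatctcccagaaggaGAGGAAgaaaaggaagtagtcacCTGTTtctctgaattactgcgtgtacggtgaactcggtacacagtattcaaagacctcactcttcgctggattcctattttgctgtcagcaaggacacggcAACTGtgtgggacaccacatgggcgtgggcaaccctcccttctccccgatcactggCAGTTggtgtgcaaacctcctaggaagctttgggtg

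GAGGAA occurred in all 4 of these windows and in neither lysozyme window, against 23.3% of 32851 RefSeq windows of the same length. Other forms of the PU.1 site were not searched, so this count does not show that the lysozyme windows lack such a site. GAGGAA lay 85 to 80 bases before the start in Elane and 95 to 90 bases before it in Prtn3, and further upstream in Mpo and Ctsg. AACNG occurred in all 6 members' windows, but also in 74.2% of all windows. The C/EBP pattern TTNNGNAA was found in the windows of Lyz2 and Lyz1 and in 0 of the 4 azurophil ones (36.8% of all windows), and in Lyz2 it overlapped an AACNG match. TGTGGT, the core of a RUNX site, was found in Ctsg and Lyz2 (14.0% of all windows), and TATAA in Elane, Prtn3 and Ctsg (22.8%). All the patterns were searched on both strands and chosen with these sequences in view, and a match is a description of letters, not a binding site.

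The windows of the lysozyme pair are shown for how alike the genes are, with capitals at the bases that differ in the last 100 before the start.
Lyz2 (GRCm38.p6 chr10:117282273-117282372, minus strand): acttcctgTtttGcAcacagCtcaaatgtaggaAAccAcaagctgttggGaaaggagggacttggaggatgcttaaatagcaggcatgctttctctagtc
Lyz1 (GRCm38.p6 chr10:117292869-117292968, minus strand): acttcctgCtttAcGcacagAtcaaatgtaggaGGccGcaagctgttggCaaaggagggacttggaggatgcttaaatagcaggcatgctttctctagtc

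Of these 100 bases 92 are identical without gaps, and the 50 nearest the start are the same in both genes. Over all 250 bases before the start 152 (60.8%) are identical without gaps.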

How the data were processed

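The 6 arrays (3 miR-223 null, 3 wild-type) were grouped by their titles. Per the labels' protocols, Tri Reagent and then RNeasy Plus columns were used to prepare RNA, which carried a biotin label. The authors deposited log2 expression values, 1 per probe set and array. GCOS is named per the submitters' processing notes, while the software's version, the background correction and the normalization are not given in the sources used. That the values are log2 follows from their range (2.12, the lowest outside the controls, to 14.98, the highest among tested probe sets). With arrays, precision depends on their number.

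Controls (64 probe sets) were not tested. Of the remaining 45037, the brighter 22519 by mean level were tested (a mean of at least 4.83, the median mean). The fit used limma 3.58.1 in R 4.3.3 (lmFit, eBayes with an intensity trend, no covariate, two-sided, Benjamini-Hochberg, threshold 0.05) and was tested on simulated data. Exact permutation tests used SciPy 1.17.1, and matplotlib 3.10.9 drew the figures. The members, the lists and 15 of the 16 other settings were chosen with earlier results of these data known. The block together with the omission of wild-type replicate 2, and the descriptive values without that array, were added after these values were seen. Gene lists and cell type markers planned by symbol were not analysed here, because the table pairs no probe set with a gene. The text names the 6 members by rule, and at most 2 of the planned 5 probe sets most like each profile. The technical sets part the arrays where the means of 18 hybridization controls leave their widest gap (0.13). Replicates 1 to 3 share numbers between the groups. Same-numbered arrays deviated from their group means with r of 0.211, −0.124 and 0.371. With no reference value beside them, these cannot settle whether the numbers pair the arrays. The main fit took the arrays as unpaired. Sequences are from RefSeq (GRCm38.p6), where all 6 members matched by symbol.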

Additional observations from a re-analysis of the deposited data

How the results depend on the processing

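The 6 members were refitted under 16 alternatives, 15 of them planned with earlier results of these data known and 1 chosen after seeing the data (the technical set as a block and without wild-type replicate 2). In these 96 fits a member passed the threshold 0 times, with a lowest limma adjusted p of 0.0833 (Ctsg without wild-type replicate 1), and the sign of the main fit was kept in 89. Leaving out each array in turn gave differences of 0.06 to 0.75 for Mpo, −0.10 to 0.49 for Elane, 0.31 to 1.05 for Prtn3, 0.44 to 1.12 for Ctsg, −0.022 to 0.0056 for Lyz2 and −0.0052 to 0.030 for Lyz1. The lowest values of the 4 azurophil genes and of Lyz1 were without wild-type replicate 2 and the highest were without wild-type replicate 1, among these 6 fits. The sign turned for Elane without wild-type replicate 2 (−0.10) and for Lyz2 without null replicate 2 (0.0056) or wild-type replicate 1 (0.0050). For Lyz1 it turned without wild-type replicate 2 (−0.0052) and under the technical set block (−0.0056). With the block and without wild-type replicate 2 the differences were 0.05 for Mpo, −0.093 for Elane, 0.28 for Prtn3, 0.43 for Ctsg, −0.02 for Lyz2 and −0.012 for Lyz1. The cause was not tested.

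The number of probe sets called over the whole table was 864. It was 2466 under the technical set block, 2909 with that block and without wild-type replicate 2, 119 with null replicates 1 and 2 averaged, and 85 to 592 with 1 array left out. With the replicate block it was 857, with 0 members called (limma adjusted p = 0.230 for Ctsg), so the block changed no call of a member. A setting with the stricter filter, no filter, no intensity trend, quantile normalization, median centring or an offset of 16 left each member's sign and call as they were.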
